A study of Danio rerio with 9 samples.

Results

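The genes described here are 36 zebrafish genes of the cell cycle engine, chosen by name: the enzymes that copy DNA, the enzymes that supply its building blocks, and the proteins that carry a cell through mitosis. A gene of the deposited count table was taken where its symbol in the reference table of gene names equalled a listed name, ignoring case. Where a listed name had no match, it was tried without its final letter, which is how birc5a came to be read as BIRC5. This gave 31 genes of the 32434 in the table, for 29 of the 36 names. The other 7 names (mcm2, mcm7, ccnd1, ccne2, e2f1, cdc20 and ube2c) were not analysed here. Of the 31 genes, 30 had enough reads to be tested. The exception was one of the pair of genes named MCM6 (ENSDARG00000033231), which held 35 reads over all 9 libraries. Symbols in capitals are printed as the reference table gives them.

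Messenger RNA was sequenced from whole wild-type 5D zebrafish embryos at 48 hours post fertilization (hpf), in 3 groups of 3 vials with 20 pooled embryos each. BaAQ embryos had been kept in 10 µM benzanthracene-7,12-dione from 6 to 48 hpf, BEZO embryos in 10 µM 1,9-benz-10-anthrone over the same hours, and Control embryos in vehicle. All 9 vials, Control included, held 1% dimethyl sulfoxide in 2 mL, were rocked in the dark, and stood at 37 °C according to the labels. Both compounds are oxygenated polycyclic aromatic hydrocarbons; BaAQ is a quinone, with a pair of ketone groups across a ring, and BEZO is a ketone. The vial is the sample, and the labels call the vials of a group independent biological replicates. Embryos came from spawns on 3 days, and since the labels do not say which vial came from which day, the effects of day and vial cannot be told apart.

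Before a cell divides it copies its genome once. A ring-shaped helicase built from the MCM proteins opens the double helix, polymerase alpha lays down primers, the sliding clamp PCNA holds the working polymerases on the template, and FEN1 and LIG1 trim and seal the pieces of the lagging strand. Mitosis follows, driven by cyclin B with CDK1 and by the Aurora and Polo kinases, with motors and kinetochore proteins that sort the chromosomes. In zebrafish embryos at this age, dividing cells are found in the retina, brain, gut, fins and blood-forming tissue, among others, while muscle and many neurons have stopped dividing.

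The table holds whole reads per gene, and library totals ran from 8106613 to 14435626. Levels are given in CPM, the reads of a gene scaled by the total of its library. CPM is not corrected for gene length, so levels are compared between libraries and never between genes. At these totals 3 reads correspond to 0.208 to 0.370 CPM. Markers of the tissues of a whole embryo were read in every group: the muscle gene ckma averaged 2315, 2430 and 2410 CPM and the neuronal gene ELAVL3 1045, 1061 and 990 CPM in BaAQ, BEZO and Control embryos. The liver gene fabp10a was near the floor in all 3 groups, at 0.520, 0.747 and 0.937 CPM. Fold changes come from edgeR's quasi-likelihood test with TMM scaling over all 9 libraries, are given as log2 ± standard error, and were called at a Benjamini-Hochberg adjusted p under 0.05 over 18860 tested genes. Because TMM scaling adjusts for the composition of each library, a fitted fold change can differ a little from the ratio of the CPM values printed beside it.

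In embryos exposed to BaAQ, 6 of the 8 tested replication enzymes were called lower than in Control embryos, and 1 of the 16 tested mitosis genes was. Of the 30 tested genes, 11 were called lower and 0 higher. At an unadjusted p under 0.05, 14 were lower and 1 higher, and DESeq2 called 9 lower and 0 higher. Of all 18860 tested genes, 2265 were lower and 2183 higher at an unadjusted p under 0.05, and DESeq2 called 835 lower and 672 higher. By edgeR 5.41% of all tested genes were called lower and 4.82% higher. The median log2 fold change was -0.16 over the 30 genes and 0.0036 over all tested genes. The median was -0.51 over the 8 replication enzymes and -0.10 over the 16 mitosis genes. RNA of whole embryos cannot tell fewer cells with an active gene from less RNA of that gene per cell.

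The balance of higher and lower calls over all genes moved with the scaling. BaAQ over Control gave 909 genes higher and 1020 lower with TMM, against 1352 higher and 742 lower when libraries were scaled by their totals alone. For BEZO over Control the split was 582 higher and 632 lower with TMM, against 766 higher and 507 lower. With library totals alone, 8 of the 30 members were called lower in BaAQ over Control, 6 of them replication enzymes, and TYMS, CCNB1 and mki67 were no longer called.

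**Figure D1:**
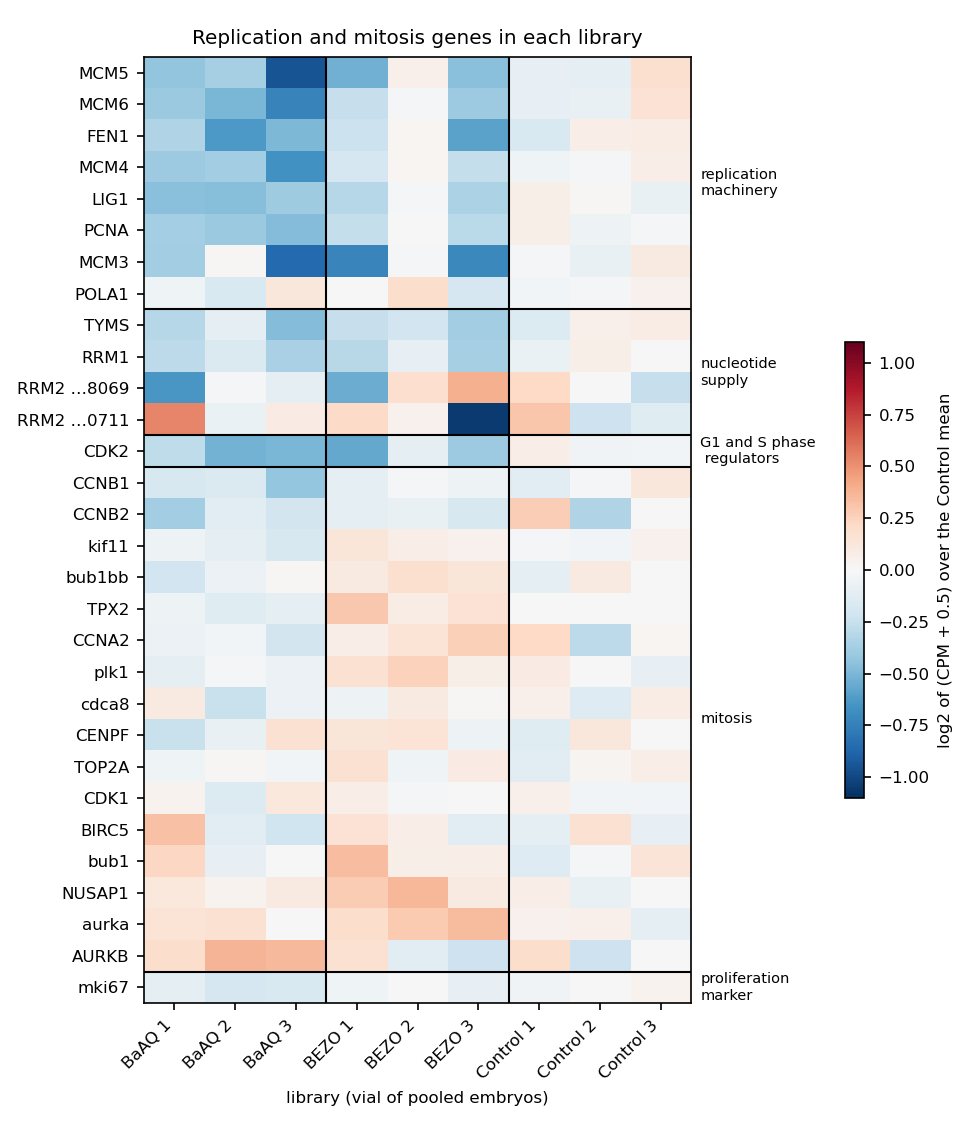
Heat map of the 30 tested genes (rows, grouped by role) in the 9 libraries (columns, BaAQ left, Control right); colour is log2 of (CPM + 0.5) over the mean of the 3 Control libraries, blue for lower and red for higher. The block of replication enzymes is blue in all 3 BaAQ libraries and in BEZO 1 and BEZO 3, with BEZO 2 close to Control and with POLA1, and MCM3 in BaAQ 2, as exceptions; the mitosis block is mostly pale.

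Among the members, the helicase genes MCM5 and MCM6 showed the largest differences. MCM6 (ENSDARG00000057683), a subunit of the ring, read 71.4, 66.6 and 56.8 CPM in the BaAQ libraries, 79.5, 93.5 and 71.7 CPM in the BEZO libraries and 89.2, 89.5 and 105.9 CPM in the Control libraries. All 3 BaAQ libraries lay below every Control library, and BEZO 2 lay within the Control range. The difference was -0.60 ± 0.10 (edgeR adjusted p = 0.000408), a change of -34.0% with a 95% interval from -42.8% to -23.8%. The second gene with this symbol (ENSDARG00000033231) held between 2 and 5 reads in each library.

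MCM5, another subunit, read 44.8, 46.9 and 31.1 CPM in BaAQ, 41.7, 63.1 and 44.0 CPM in BEZO and 56.8, 56.4 and 68.6 CPM in Control embryos. BaAQ and Control libraries did not overlap, and BaAQ 3 was the lowest of the 9. The difference of -0.62 ± 0.14 (edgeR adjusted p = 0.00741) was the largest of the 30. The call missed the threshold without Control 3 and in DESeq2, where the adjusted p values reached at most 0.0730.

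MCM4 read 56.8, 57.5 and 47.1 CPM in BaAQ, 65.9, 76.3 and 62.7 CPM in BEZO and 72.6, 73.8 and 79.0 CPM in Control embryos. The 3 BaAQ libraries lay below all 6 others, and BaAQ differed from Control by -0.54 ± 0.09 (edgeR adjusted p = 0.000428).

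MCM3 was read at a lower depth, with 913 reads over the 9 libraries. Its levels were 8.28, 11.1 and 5.84 CPM in BaAQ, 6.43, 10.8 and 6.52 CPM in BEZO and 10.8, 10.3 and 11.8 CPM in Control embryos. BaAQ 2 and BEZO 2 lay within the Control range and the other 4 exposed libraries lay below it. The difference of -0.45 ± 0.20 for BaAQ over Control did not pass (edgeR adjusted p = 0.172), with a 95% interval from -0.87 to -0.03.

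Of the enzymes that act behind the helicase, PCNA, LIG1 and FEN1 were lower with BaAQ and POLA1 was not called. PCNA, the sliding clamp, read 122.7, 119.5 and 113.8 CPM in BaAQ, 132.5, 158.6 and 129.1 CPM in BEZO and 166.2, 152.5 and 157.8 CPM in Control embryos. The BaAQ libraries lay below all others, and BEZO 2 was higher than 2 of the 3 Control libraries. The difference between BaAQ and Control was -0.47 ± 0.08 (edgeR adjusted p = 0.000385).

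LIG1, the ligase that seals the lagging strand, read 69.0, 68.7 and 72.5 CPM in BaAQ, 76.5, 93.7 and 74.7 CPM in BEZO and 99.3, 95.9 and 89.7 CPM in Control embryos. Its groups again did not overlap between BaAQ and Control, at -0.49 ± 0.09 (edgeR adjusted p = 0.000651). FEN1, the flap endonuclease, read 32.2, 26.0 and 28.8 CPM in BaAQ, 34.5, 41.3 and 26.9 CPM in BEZO and 36.2, 42.9 and 43.0 CPM in Control embryos. FEN1 differed by -0.54 ± 0.13 between BaAQ and Control (edgeR adjusted p = 0.00771), and BEZO 3 was as low as the BaAQ libraries.

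POLA1, the catalytic subunit of polymerase alpha, was not called. It read 47.5, 43.8 and 53.7 CPM in BaAQ, 49.1, 56.4 and 43.1 CPM in BEZO and 48.1, 48.4 and 50.9 CPM in Control embryos. The Control libraries lay inside the range of either compound. BaAQ over Control was -0.08 ± 0.10 (edgeR adjusted p = 0.699), with a 95% interval from -0.28 to 0.13. The calls of PCNA, MCM4, MCM6, FEN1 and LIG1 held in all 18 alternative settings and left-out libraries.

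The genes that supply deoxynucleotides gave 2 lower calls among 4 genes in BaAQ over Control. RRM1, the large subunit of ribonucleotide reductase, read 131.7, 143.8 and 125.2 CPM in BaAQ, 129.9, 150.5 and 124.9 CPM in BEZO and 153.0, 168.2 and 160.4 CPM in Control embryos. All 6 exposed libraries lay below all 3 Control libraries. For BaAQ the difference was -0.32 ± 0.08 (edgeR adjusted p = 0.0113), a call that ended without Control 2 at an adjusted p of 0.0730.

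TYMS, thymidylate synthase, read 18.9, 22.0 and 16.8 CPM in BaAQ, 19.6, 20.2 and 17.9 CPM in BEZO and 21.2, 24.5 and 24.9 CPM in Control embryos. BaAQ 2 lay inside the Control range. BaAQ over Control was -0.36 ± 0.11 (edgeR adjusted p = 0.0407), and the call was lost in 9 of 18 alternatives, where the adjusted p reached 0.186. These were DESeq2, library totals alone, a fit of the 2 groups compared, the stricter threshold of 0.01, and leaving out Control 2, Control 3, BEZO 1, BaAQ 1 or BaAQ 3.

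The pair of genes named RRM2, the small subunit of ribonucleotide reductase, swung widely between vials of the same group. RRM2 (ENSDARG00000020711) read 21.9, 14.2 and 15.96 CPM in BaAQ, 17.4, 15.5 and 6.94 CPM in BEZO and 18.6, 12.7 and 13.6 CPM in Control embryos. RRM2 (ENSDARG00000078069) read 8.99, 14.1 and 13.4 CPM in BaAQ, 9.65, 16.4 and 19.0 CPM in BEZO and 16.7, 14.3 and 11.9 CPM in Control embryos. In BaAQ 1 the first was the highest of the 9 libraries and the second the lowest, and in BEZO 3 the second was the highest and the first the lowest.

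Summed over the RRM2 pair, the levels were 30.9, 28.2 and 29.3 CPM in BaAQ, 27.1, 31.9 and 25.9 CPM in BEZO and 35.3, 26.9 and 25.5 CPM in Control embryos. Within the BaAQ and BEZO groups the sum varied less in CPM than either gene alone. Within the Control group it varied more, from 25.5 to 35.3 CPM, against 12.7 to 18.6 and 11.9 to 16.7 CPM for the genes alone. Whether reads that fit both copies affected these values was not tested, and how such reads were counted is not given. Neither gene passed in any comparison.

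CDK2, the cyclin-dependent kinase of the start of DNA synthesis, was the only tested member of its class. It read 14.8, 12.5 and 12.6 CPM in BaAQ, 12.1, 16.8 and 13.6 CPM in BEZO and 19.0, 17.6 and 17.7 CPM in Control embryos. Every exposed library lay below every Control library. With BaAQ the difference was -0.49 ± 0.13 (edgeR adjusted p = 0.0163), and the call ended without Control 1, BaAQ 2 or BaAQ 3, with adjusted p values of at most 0.0637.

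Among the 16 mitosis genes CCNB1, the mitotic cyclin B1, was the only one called lower in BaAQ over Control. It read 46.3, 47.0 and 39.1 CPM in BaAQ, 48.8, 51.8 and 50.6 CPM in BEZO and 48.5, 51.8 and 57.3 CPM in Control embryos. The BaAQ libraries lay below all 6 others, with a gap to Control 1 smaller than the spread within either group. The difference was -0.31 ± 0.09 (edgeR adjusted p = 0.0238). It was not called with library totals alone, nor without Control 2, Control 3 or BaAQ 3, where the adjusted p reached 0.130.

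plk1, the Polo kinase of mitotic entry, read 79.7, 84.1 and 81.6 CPM in BaAQ, 95.99, 101.7 and 89.6 CPM in BEZO and 90.7, 85.4 and 80.2 CPM in Control embryos. BaAQ and Control libraries overlapped, and the difference of -0.12 ± 0.07 did not pass (edgeR adjusted p = 0.370). aurka, the Aurora kinase of the spindle poles, read 18.1, 18.3 and 16.3 CPM in BaAQ, 18.6, 19.9 and 20.8 CPM in BEZO and 16.7, 16.9 and 15.04 CPM in Control embryos. BaAQ over Control was 0.06 ± 0.11 (edgeR adjusted p = 0.797), with a 95% interval from -0.16 to 0.28.

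The other 13 mitosis genes ranged from -0.28 ± 0.16 for CCNB2, a second B-type cyclin, to 0.28 ± 0.13 for AURKB, the Aurora kinase of the chromosomal passenger complex. CDK1, the mitotic kinase itself, stood at -0.04 ± 0.08, CCNA2 (cyclin A2) at -0.14 ± 0.11 and TOP2A, the topoisomerase that untangles sister chromatids, at -0.08 ± 0.07. The spindle checkpoint kinases bub1 and bub1bb stood at 0.0019 ± 0.10 and -0.15 ± 0.11. The spindle motor kif11 and the spindle assembly factors TPX2 and NUSAP1 stood at -0.16 ± 0.06, -0.15 ± 0.06 and 0.03 ± 0.08. CENPF at the kinetochore, and cdca8 and BIRC5 of the passenger complex, stood at -0.10 ± 0.09, -0.11 ± 0.11 and -0.03 ± 0.14.

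None of those 13 genes passed in edgeR. At an unadjusted p under 0.05, kif11 and TPX2 were lower and AURKB higher. For 15 of the 16 mitosis genes, CCNB2 being the exception, the 95% interval of BaAQ over Control lay wholly above the replication median of -0.51. The same held for 1 of the 8 replication enzymes. That median was taken from these same data, and the members were grouped by role with results of these data known. No share of all tested genes was worked out for it, so these counts are a description and no test. The groups did not overlap, with BaAQ lower, for 12 of the 30 members and for 9.63% of all tested genes.

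mki67, the nuclear protein used as a general mark of proliferation, read 474.4, 449.9 and 455.1 CPM in BaAQ, 496.0, 512.6 and 481.1 CPM in BEZO and 498.0, 512.6 and 525.5 CPM in Control embryos. The BaAQ libraries lay below all others. Its difference was -0.21 ± 0.06 (edgeR adjusted p = 0.0280), the smallest of the 11 called differences. It was not called with library totals alone, nor without Control 2, Control 3 or BaAQ 2, where the adjusted p reached 0.106.

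**Figure D2:**
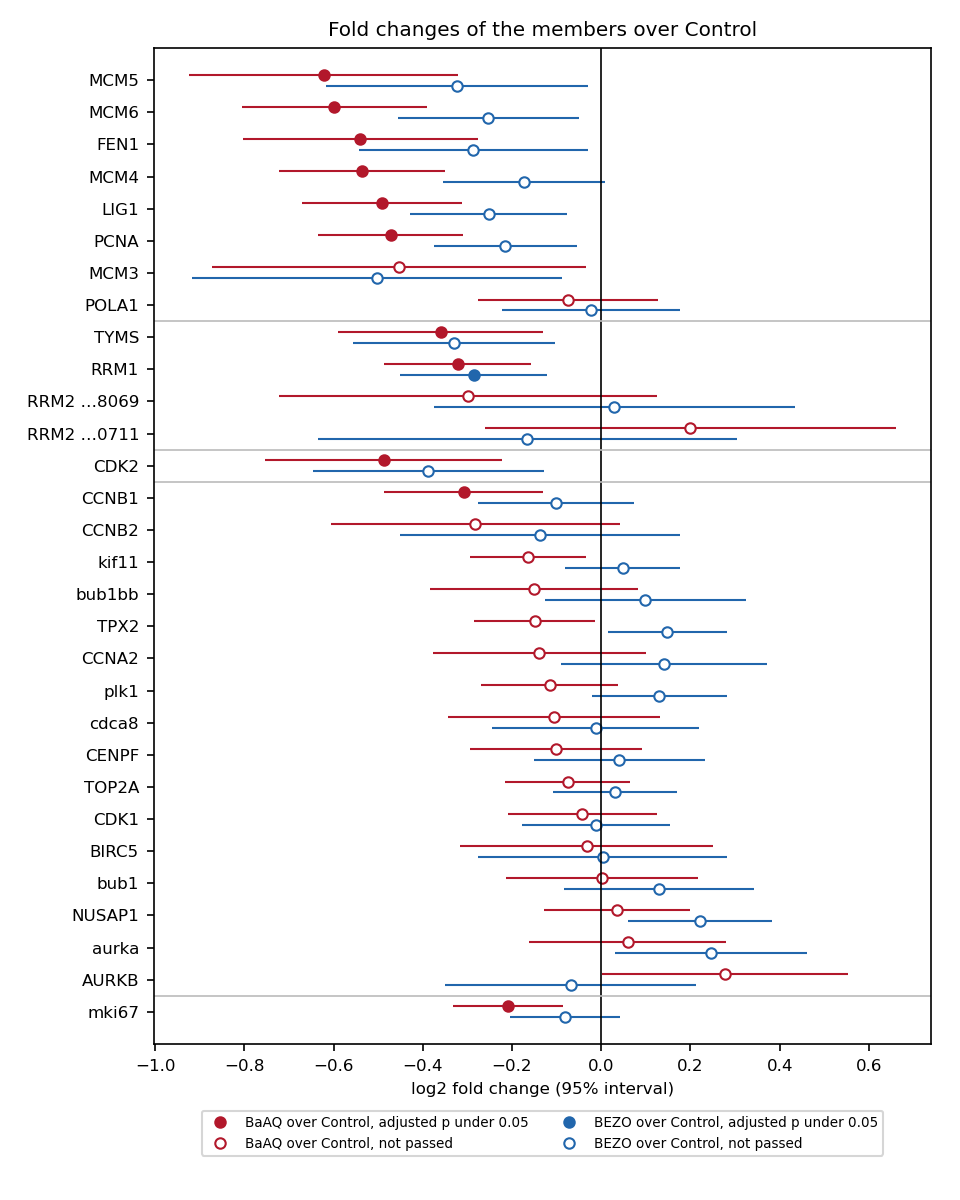
Fitted log2 fold change over Control (horizontal axis, with 95% interval) of each tested gene (rows, by role) for BaAQ in red and BEZO in blue; filled circles passed an edgeR adjusted p under 0.05. BaAQ fills 11 circles, 6 of them among the 8 replication enzymes at the top, and BEZO fills only RRM1.

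Summed per library, the 8 replication enzymes made up 434.1 ± 22.2 CPM in BaAQ, 512.8 ± 71.3 CPM in BEZO and 585.2 ± 19.2 CPM in Control embryos (SD, n = 3 each). The BaAQ mean differed from the Control mean by -25.8% and the BEZO mean by -12.4%. The 16 mitosis genes made up 949.9 ± 19.4 CPM in BaAQ, 1056 ± 40.4 CPM in BEZO and 981.1 ± 17.7 CPM in Control embryos (SD, n = 3 each). Here the BaAQ mean differed from the Control mean by -3.18% and the BEZO mean by 7.64%. These sums were scaled by library totals alone, without the TMM factors, and the small mitosis differences depend on that choice. The mitosis median of BaAQ over Control was -0.0502 with library totals alone and -0.1038 with TMM. For BEZO over Control it was 0.0814 and 0.0443.

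The ratio of the replication sum to the mitosis sum was 0.483, 0.468 and 0.421 in the BaAQ libraries, 0.444, 0.561 and 0.452 in the BEZO libraries and 0.603, 0.575 and 0.611 in the Control libraries. All 6 exposed libraries lay below all 3 Control libraries, with BEZO 2 nearest to them. In BEZO 2 the replication sum, 593.7 CPM, lay inside the Control range of 569.8 to 606.6 CPM. Its mitosis sum of 1058 CPM lay above the Control range of 960.7 to 992.5 CPM, so its lower ratio came from the mitosis sum. The mitosis sums of all BEZO libraries, from 1015 to 1095 CPM, lay above that range. The ratio of the sums is unaffected by the scaling of the libraries. With 3 libraries a group it is given as a description, with no test, since the grouping of the members was made with results of these data known.

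**Figure D3:**
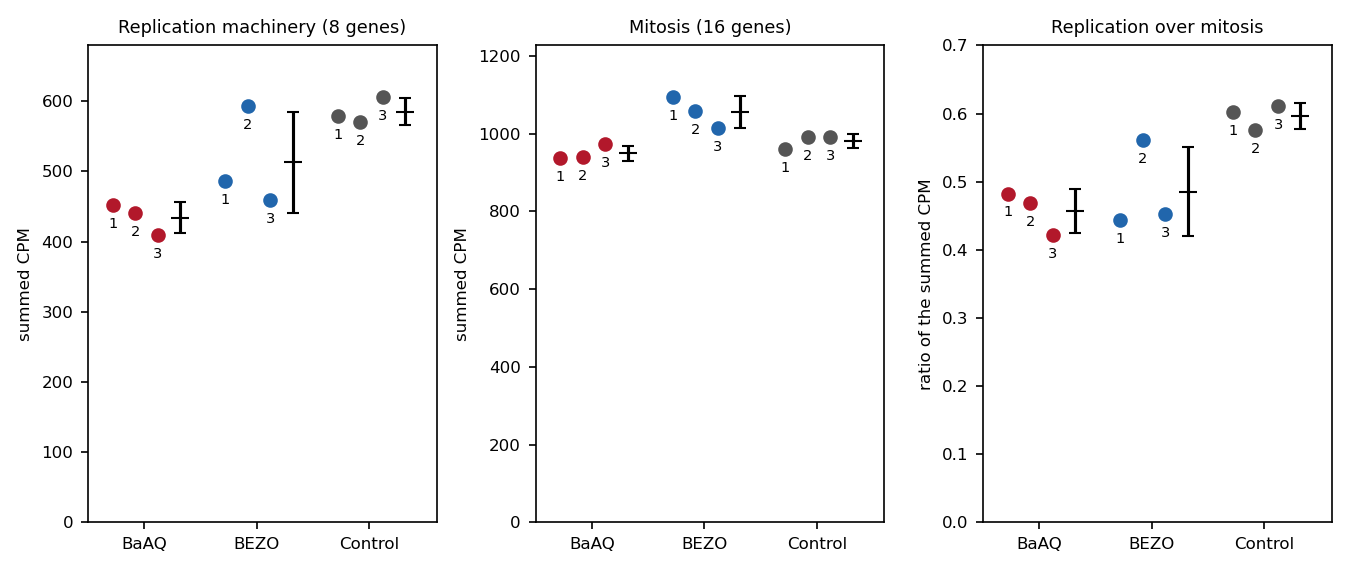
Summed CPM of the 8 replication enzymes (left) and of the 16 mitosis genes (centre), and their ratio (right), in each library (points, numbered by replicate), with the group mean and SD beside them and axes from 0. The sums are scaled by library totals alone, without TMM factors. The replication sum was 434.1 CPM on average in BaAQ and 585.2 CPM in Control embryos, and the mitosis sum differed by -3.18% on this scaling. BEZO 2 stands above the other BEZO libraries in the left and right panels.

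With BEZO, 1 of the 30 genes was called lower and 0 higher against Control, where 3.35% of all tested genes were called lower and 3.09% higher. RRM1 was the gene called, at -0.29 ± 0.08 (edgeR adjusted p = 0.0319). Its call ended without Control 2, Control 3, BEZO 1 or BEZO 3, where the adjusted p reached 0.189. At an unadjusted p under 0.05, 9 members were lower and 3 higher, beside 1891 lower and 1798 higher of all 18860 tested genes. The count of higher members is near the share of all tested genes and is no result about the members. DESeq2 called 1 member lower and 0 higher.

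Of the 8 replication enzymes 0 were called for BEZO by edgeR with its filter on low counts or by DESeq2. At an unadjusted p under 0.05, 6 were lower, and all 8 had negative fold changes, with a median of -0.25. The lack of calls depended on the filter. With no filter on low counts, edgeR over all libraries called MCM3, MCM5, MCM6 (ENSDARG00000057683), FEN1, LIG1 and PCNA lower, and TYMS and CDK2 as well. Dropping the filter also raised the calls over all genes, in BaAQ over Control from 1020 to 1355 lower. The matching count for BEZO over Control is not given here, so these calls stand without a background of their own. MCM3 stood at -0.50 ± 0.20, MCM5 at -0.32 ± 0.14, FEN1 at -0.29 ± 0.12, MCM6 (ENSDARG00000057683) at -0.25 ± 0.10 and LIG1 at -0.25 ± 0.08. PCNA stood at -0.22 ± 0.08, MCM4 at -0.17 ± 0.09 and POLA1 at -0.02 ± 0.10. TYMS and CDK2, at -0.33 ± 0.11 and -0.39 ± 0.12, did not pass (edgeR adjusted p = 0.0769 and 0.0705), although in both the 3 BEZO libraries lay below the 3 Control libraries.

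Of the 16 mitosis genes 0 were called for BEZO by edgeR or by DESeq2, and the median was 0.04. At an unadjusted p under 0.05, aurka at 0.25 ± 0.10, NUSAP1 at 0.22 ± 0.08 and TPX2 at 0.15 ± 0.06 were higher. CCNB1 stood at -0.10 ± 0.08, plk1 at 0.13 ± 0.07 and mki67 at -0.08 ± 0.06. NUSAP1 alone among the mitosis genes was called higher under any alternative, with library totals alone and without BEZO 3, where its lowest edgeR adjusted p was 0.0373.

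The BEZO vials did not behave alike. BEZO 2 was the highest of its group for all 8 replication enzymes, for 23 of 41 further replication genes and for 5490 of all 18860 tested genes. It was also the highest for 7 of 16 mitosis members, 23 of 46 further mitosis genes and 9 of 15 DNA repair genes. Of all tested genes it was the lowest of its group for 7916, against 5477 for BEZO 1 and 5467 for BEZO 3. Its replication sum was 593.7 CPM, against 486.1 CPM in BEZO 1 and 458.7 CPM in BEZO 3, and it lay inside the Control range of 569.8 to 606.6 CPM. None of its 8 enzymes was below every Control library, against 7 in BEZO 1 and 8 in BEZO 3. Its total of 10925452 reads lay within the range of the other libraries. Its TMM factor of 0.988 was the lowest of the exposed libraries, the others lying between 1.012 and 1.017. That factor lay within the Control range of 0.961 to 0.997. Whether vial, spawning day or another difference set it apart was not tested.

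Left without BEZO 2, the comparison of BEZO with Control called 8 of the 30 genes lower, where 3.20% of all tested genes were lower. These were 6 of the 8 replication enzymes, RRM1 and CDK2. MCM3 stood at -0.81 ± 0.20 (edgeR adjusted p = 0.0169), MCM5 at -0.55 ± 0.13 (adjusted p = 0.0127), FEN1 at -0.46 ± 0.12 (adjusted p = 0.0256) and LIG1 at -0.38 ± 0.08 (adjusted p = 0.00486). MCM6 (ENSDARG00000057683) stood at -0.38 ± 0.10 (edgeR adjusted p = 0.0232) and PCNA at -0.33 ± 0.07 (adjusted p = 0.00659). The replication median was then -0.38 and the mitosis median 0.05, with 0 mitosis genes called. That vial was picked out with its values in view, so these counts describe how far it sets the result and do not replace the comparison over all 9 libraries.

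**Figure D4:**
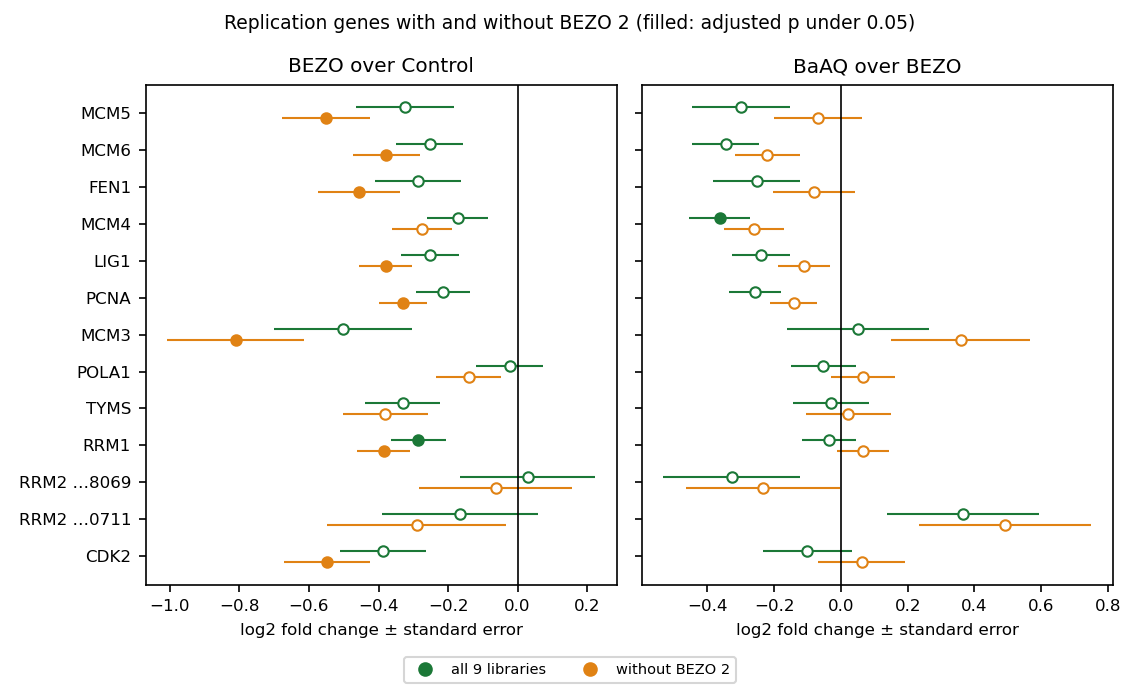
Fitted log2 fold change ± standard error (horizontal axes) of the replication, nucleotide supply and CDK2 genes (rows) for BEZO over Control (left) and BaAQ over BEZO (right), with all 9 libraries in green and without BEZO 2 in orange; filled circles passed an edgeR adjusted p under 0.05. Without BEZO 2, 8 members are called in the left panel and none in the right.

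Set directly against each other at the same dose and hours, the compounds differed for 2 of the 30 genes, MCM4 and TPX2, both lower with BaAQ, against 2.27% of all tested genes called lower and 2.56% called higher. This is the only pair of compounds in the study. MCM4 was lower in BaAQ than in BEZO by -0.36 ± 0.09 (edgeR adjusted p = 0.0224), and this call ended without BEZO 2 or without BaAQ 3, at an adjusted p of at most 0.150. TPX2, which targets the Aurora A kinase to the spindle, read 111.9, 105.8 and 108.9 CPM in BaAQ, 143.3, 123.4 and 130.3 CPM in BEZO and 116.6, 116.4 and 116.2 CPM in Control embryos. The BaAQ libraries lay below and the BEZO libraries above the Control libraries, whose levels lay closer together than counting error alone would give. BaAQ over BEZO was -0.30 ± 0.06 (edgeR adjusted p = 0.00908), and the call ended without BEZO 1 at an adjusted p of 0.0703.

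Over the replication enzymes, BaAQ over BEZO had a median of -0.26 with 1 called, and a median of -0.10 with 0 called without BEZO 2. At an unadjusted p under 0.05, 4 were lower with all libraries, and DESeq2 called 2. Of all 18860 tested genes, 1650 were lower at that unadjusted p and DESeq2 called 357 lower. For PCNA the difference of -0.26 ± 0.08 did not pass (edgeR adjusted p = 0.0667), nor did that of MCM6 (ENSDARG00000057683) at -0.35 ± 0.10 (adjusted p = 0.0533). The 95% intervals of the 8 enzymes reached from -0.61 for MCM5 to 0.49 for MCM3, so a missed threshold does not show that the compounds acted alike.

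For the mitosis genes, the log2 fold change of BaAQ over BEZO was negative for 15 of 16, with a median of -0.17, against a median of -0.0006 over all tested genes. For 7 of the 16 the BaAQ libraries lay below all BEZO libraries, and for 12 of the 30 members, set beside 9.80% of all tested genes. plk1 at -0.25 ± 0.07 and kif11 at -0.21 ± 0.06 came closest without passing (edgeR adjusted p = 0.0610 and 0.0562). AURKB was positive at 0.35 ± 0.13 (edgeR adjusted p = 0.167). BaAQ over Control and BEZO over Control share the Control libraries, so their resemblance for a member is no separate evidence.

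The spread between vials differed by role. The coefficient of variation over the 3 libraries had a median of 10.8% in BaAQ, 13.5% in BEZO and 5.94% in Control embryos for the replication enzymes. For the mitosis genes the medians were 7.54%, 6.59% and 7.81%, and for all tested genes 10.5%, 9.77% and 9.57%. TPX2 had the smallest spread of any member, 0.187% over the Control libraries. That is less than counting error alone would give for its 1122, 1680 and 1607 Control reads, so it does not measure how alike the vials were. Within the BaAQ group, BaAQ 3 was the lowest library for 5 of the 8 replication enzymes and for 7015 of all 18860 tested genes.

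Further genes of the same processes, from lists of known replication and mitosis genes, were read in the same fit. Of 41 further replication genes tested, 3 were called lower and 0 higher in BaAQ over Control, with a median of -0.18. That share is near the 5.41% of all tested genes called lower and is no result about these genes as a group. POLA2, the accessory subunit of polymerase alpha, stood at -0.47 ± 0.14, RPA2, which coats single-stranded DNA, at -0.45 ± 0.13, and CTPS1, which makes cytidine triphosphate, at -0.42 ± 0.10 (edgeR adjusted p between 0.00802 and 0.0354). Their means were 8.94 CPM for POLA2, 13.2 CPM for RPA2 and 35.2 CPM for CTPS1 in BaAQ, against 11.9, 17.5 and 45.2 CPM in Control embryos. At an unadjusted p under 0.05, 13 were lower and 1 higher, and DESeq2 called 1. Of all 18860 tested genes, 2265 were lower and 2183 higher at that unadjusted p.

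In BEZO over Control 0 of these 41 genes were called by edgeR or by DESeq2, and the median was -0.06. At an unadjusted p under 0.05, 1 was lower and 2 were higher, beside 1891 lower and 1798 higher of all 18860 tested genes. In BaAQ over BEZO, where 2.27% of all tested genes were called lower, chaf1a alone was called, at -0.34 ± 0.07 (edgeR adjusted p = 0.00505). It encodes a subunit of the assembly factor that places histones on new DNA, and read 92.4, 93.8 and 89.8 CPM in BaAQ, 112.4, 120.9 and 111.0 CPM in BEZO and 92.8, 102.4 and 101.5 CPM in Control embryos.

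Of 46 further mitosis genes tested, 4 were called lower and 0 higher in BaAQ over Control, again beside 5.41% of all tested genes called lower, with a median of -0.09. CDCA7, a chromatin protein of dividing cells, showed the largest difference, reading 15.7, 12.5 and 14.2 CPM in BaAQ, 17.8, 22.2 and 15.5 CPM in BEZO and 27.4, 21.6 and 22.4 CPM in Control embryos, at -0.79 ± 0.14 (edgeR adjusted p = 0.000583). The condensin genes SMC2 and SMC4 and the kinetochore gene ndc80 were lower by smaller amounts, at -0.28 ± 0.08, -0.22 ± 0.07 and -0.37 ± 0.11. In BEZO over Control 1 gene was called in each direction, where 3.35% of all tested genes were called lower and 3.09% higher. Those counts of calls do not exceed these shares and are no result about the list. The median was 0.08, with 36 genes positive and 10 negative, beside 9394 positive and 9466 negative of all tested genes. At an unadjusted p under 0.05, 6 were higher and 2 lower, beside 1798 higher and 1891 lower of all tested genes. NEK2, a centrosome kinase, was higher at 0.64 ± 0.16, and ZWILCH, of the kinetochore, was lower at -0.65 ± 0.18. BaAQ over BEZO gave 3 genes lower and 0 higher, beside 2.27% of all tested genes called lower. They were SMC2, the spindle motor kifc1 and the kinetochore scaffold knl1, at -0.32 ± 0.08, -0.31 ± 0.08 and -0.29 ± 0.08. Here the median was -0.13, with 42 genes negative and 4 positive, beside 9456 negative and 9404 positive of all tested genes. At an unadjusted p under 0.05, 16 were lower and 0 higher, beside 1650 lower and 1747 higher of all tested genes.

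Cells that meet damage can halt their cycle through inhibitors of the cyclin-dependent kinases and induce genes of growth arrest and cell death. Of 25 tested genes of cell cycle brakes and damage response, 7 were called higher and 0 lower in BaAQ over Control, and 6 higher and 0 lower in BEZO over Control, where 4.82% and 3.09% of all tested genes were called higher. The medians were 0.18 and 0.13. cdkn1a, the inhibitor p21 that blocks cyclin-dependent kinases, read 5.90, 7.15 and 9.91 CPM in BaAQ, 6.94, 8.97 and 6.83 CPM in BEZO and 5.09, 3.39 and 3.62 CPM in Control embryos. Every exposed library lay above every Control library, with differences of 0.89 ± 0.21 for BaAQ and 0.91 ± 0.21 for BEZO (edgeR adjusted p = 0.00861 and 0.00956).

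mdm2, a ubiquitin ligase gene induced by damage, read 54.5, 49.6 and 54.8 CPM in BaAQ, 52.8, 58.7 and 56.9 CPM in BEZO and 35.2, 36.2 and 34.0 CPM in Control embryos. bbc3, the cell death gene PUMA, read 5.99, 6.29 and 10.4 CPM in BaAQ, 6.43, 5.40 and 7.15 CPM in BEZO and 2.39, 2.98 and 3.25 CPM in Control embryos. The exposed libraries of mdm2 and bbc3 lay wholly above the Control libraries. CCNG1 (cyclin G1) was higher by 0.34 ± 0.07 with BaAQ and by 0.50 ± 0.07 with BEZO.

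CDKN1B, the inhibitor p27, was the gene of this list called higher in BaAQ than in BEZO. CDKN1B (ENSDARG00000029018) read 37.2, 40.7 and 40.7 CPM in BaAQ, 31.0, 27.3 and 29.6 CPM in BEZO and 30.8, 32.8 and 26.0 CPM in Control embryos. The difference between the compounds was 0.41 ± 0.10 (edgeR adjusted p = 0.0172), and BaAQ over Control was 0.35 ± 0.10 (edgeR adjusted p = 0.0246). GADD45B (ENSDARG00000027744), a stress-induced gene, was the only gene of the list called lower in BaAQ than in BEZO, at -0.60 ± 0.16. casp8, an initiator caspase, was higher with both compounds, at 0.85 ± 0.15 and 0.71 ± 0.15, the stress gene SESN1 passed with BaAQ at 0.24 ± 0.07, and a gene of the Polo kinase family, PLK2 (ENSDARG00000019130), passed with BEZO at 0.42 ± 0.12.

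**Figure D5:**
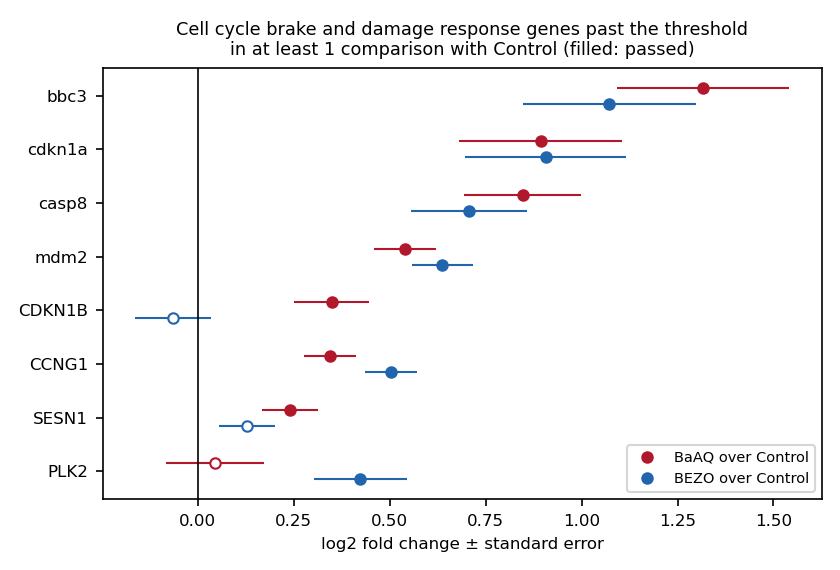
Fitted log2 fold change over Control ± standard error (horizontal axis) of the cell cycle brake and damage response genes that passed in at least 1 of the comparisons with Control (rows), for BaAQ in red and BEZO in blue; filled circles passed an edgeR adjusted p under 0.05. bbc3 lies farthest right with both compounds, and CDKN1B and SESN1 are filled for BaAQ only and PLK2 for BEZO only.

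DNA repair genes gave 1 lower and 0 higher calls of 15 in BaAQ over Control, PARP1 of strand break signalling at -0.38 ± 0.09. That share of calls is near the 5.41% of all tested genes called lower and is no result about these genes as a group. At an unadjusted p under 0.05, 4 were lower and 0 higher, beside 2265 lower and 2183 higher of all 18860 tested genes. The median was -0.17, with 12 of the 15 negative. Their sum ran from 179.2 to 187.5 CPM in BaAQ, from 191.0 to 211.1 CPM in BEZO and from 197.9 to 218.0 CPM in Control embryos. In BEZO over Control 0 of the 15 were called by edgeR or by DESeq2, with 2 lower and 1 higher at an unadjusted p under 0.05. Of all 18860 tested genes, 1891 were lower and 1798 higher at that unadjusted p.

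Markers of neural and retinal progenitors, blood-forming cells and germ cells were read beside these results. Whether the cells that carry them were dividing was not tested. Neural and retinal progenitor markers, a list of 19 tested genes that itself holds MCM5, gave 3 lower and 0 higher in BaAQ over Control (FABP7, rx2 and MCM5), and 4 lower (rx2, FABP7, PAX6 and rx1) and 1 higher (SOX3) in BEZO over Control. Of all tested genes 5.41% were called lower in BaAQ over Control, and 3.35% lower and 3.09% higher in BEZO over Control. The summed level of the list ran from 1138 to 1185 CPM in BaAQ, from 1186 to 1222 CPM in BEZO and from 1230 to 1343 CPM in Control embryos. The called FABP7 gene (ENSDARG00000007697) carried much of this. Without it and a second, low gene of that symbol, the sum of the other 17 ran from 851.4 to 862.0 CPM in BaAQ, from 902.9 to 930.6 CPM in BEZO and from 850.9 to 878.0 CPM in Control embryos. The median log2 fold change over the 19 genes was -0.06 for BaAQ and 0.08 for BEZO over Control, with 14 negative for BaAQ and 13 positive for BEZO. Blood-forming markers gave 1 lower call of 8 in BaAQ over Control, MYB at -0.43 ± 0.12, and 0 in BEZO over Control by edgeR or DESeq2, where 0 had an unadjusted p under 0.05. The 1 call stands beside the same 5.41% and is no result about these markers as a group. Their sum ran from 77.8 to 85.6 CPM in BaAQ, from 83.8 to 86.8 CPM in BEZO and from 85.6 to 86.1 CPM in Control embryos. Of 4 tested germ cell markers 0 were called in any comparison by edgeR or DESeq2, with 1 higher at an unadjusted p under 0.05 for each compound over Control, and their sum ran from 5.37 to 8.63 CPM in BaAQ, from 5.80 to 7.79 CPM in BEZO and from 4.78 to 5.64 CPM in Control embryos.

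Of 15 tested markers of formed tissues, 5 were lower and 0 higher in BaAQ over Control, led by the pigment gene TYRP1 (ENSDARG00000029204) at -0.78 ± 0.09, and 6 were lower and 0 higher in BEZO over Control, led by the haemoglobin gene hbae3 at -0.88 ± 0.12. Of all tested genes 5.41% were called lower in BaAQ over Control and 3.35% in BEZO over Control. The summed level of the 15 markers ran from 17317 to 20138 CPM in BaAQ, from 22986 to 23408 CPM in BEZO and from 21952 to 23612 CPM in Control embryos. The keratin gene krt4 alone averaged 12039 CPM in BaAQ, 15986 CPM in BEZO and 15321 CPM in Control embryos. It carried most of this sum, which therefore says little about the other markers. The part of cell type numbers and tissue makeup in the replication and mitosis results was not tested.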

How the data were processed

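Whole embryo poly-A RNA was sequenced from 9 vials. The authors deposited raw read counts per Ensembl zebrafish gene, with no normalization. Per the submitters' processing notes, CASAVA 1.8, FastQC, TopHat2, HTSeq and edgeR were used with the Zv9 build. Their options and the strand setting are not given in the sources used here. Whether reads of overlapping genes on opposite strands were told apart is therefore not known. All 9 columns matched a sample title, and 0 were left out.

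Counts were fitted in R 4.3.3 with edgeR 4.0.16 (filterByExpr by group, TMM, quasi-likelihood test of 3 group means over 9 libraries), leaving 18860 genes. P-values were Benjamini-Hochberg adjusted over all of these. CPM used library totals. Alternatives were DESeq2 1.42.0, other scalings, filters and thresholds, a replicate block, fits of 2 groups only, and each library left out. On simulated counts for 18860 genes, 58%, 57% and 52% of genes changed 1.5-fold and 80%, 86% and 82% of genes changed 2-fold were recovered for BaAQ over Control, BEZO over Control and BaAQ over BEZO, with 9.21%, 5.92% and 6.29% false calls. Replicates of a group differed beyond sampling noise (chi-square per degree of freedom 2.09 to 8.29), so each was counted as a sample of its own. The largest values, 8.29 and 6.52, were those of BaAQ 3 against BaAQ 1 and BaAQ 2. BEZO 2 stood at 3.66 against BEZO 1 and 2.92 against BEZO 3. Floors cover counting error only. The intervals of fold changes come from the quasi-likelihood fit and also take in the spread between vials of a group.

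Every member is named. Values in every library are given for PCNA, the MCM genes, POLA1, CCNB1, plk1, aurka and each member called in any comparison. Of each other list, per comparison and direction, up to 4 called genes with the smallest p are named; cdkn1a, SESN1, PLK2 and, in BaAQ over Control, CDKN1B were named after their values were seen. Some listed genes that are not members are not reported here and were left out of the list counts. The members and lists were chosen with earlier results of these data known. Promoter sequences and motifs were not analysed here. Gene symbols came from the reference table, in which 20769 of 32434 genes have 1, and 2 member symbols are shared by a pair of genes.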

Additional observations from a re-analysis of the deposited data

How the results depend on the processing

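No called member changed direction. Of 528 recomputed counts and medians, 63 moved by more than the limit set for them, which was 1.5 times for a count. DESeq2 called 2 replication genes lower in BaAQ over BEZO. With library totals alone, BaAQ over Control gave 0 mitosis genes lower, a member median of -0.10 and a mitosis median of -0.0502; BEZO over Control gave 1 member higher and a mitosis median of 0.0814. With no filter on low counts, BEZO over Control gave 9 members lower, 6 of them replication genes, and BaAQ over BEZO gave 671 genes and 7 members lower, 5 for replication and 2 for mitosis. That setting raised the genes called lower in BaAQ over Control from 1020 to 1355, and the count for BEZO over Control is not given here. At an adjusted p under 0.01, BaAQ over Control gave 449 genes higher and 529 lower, with 6 members and 0 mitosis genes lower. BEZO over Control gave 292 higher and 328 lower, with 0 members lower, and BaAQ over BEZO gave 230 higher and 179 lower, with 1 member and 0 replication genes lower.

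Leaving out each library in turn, BaAQ over Control gave 7 to 11 members and 0 to 1 mitosis genes lower, 567 to 932 genes higher, a member median of -0.20 to -0.16 and a mitosis median of -0.1064 to -0.0601. BEZO over Control gave 344 to 704 genes higher and 401 to 798 lower, 0 to 1 members higher, 0 to 8 members and 0 to 6 replication genes lower, a member median of -0.10 to 0.0009 and a mitosis median of 0.0318 to 0.0904. BaAQ over BEZO gave 287 to 480 genes higher and 244 to 403 lower, 1 to 4 members, 0 to 3 replication genes and 0 to 1 mitosis genes lower, and medians of -0.20 to -0.11 for members, -0.35 to -0.10 for replication and -0.21 to -0.15 for mitosis. For BaAQ over Control, the range of all genes called lower in these refits is not given here. Without BEZO 2, that comparison called 11 of 30 members lower. It also called lower 1060 of the 18810 genes that were tested both there and over all 9 libraries. The cause of the changes between refits was not tested.

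Replicate numbers did not pair the vials: same-numbered vials correlated at -0.0362 to 0.0288, none of 9 above 0.1. With the replicate block, BaAQ over Control called 11 members lower, 6 of them replication genes, and BaAQ over BEZO called 448 genes higher and 391 lower. The least read tested members were CCNB2 with 891 reads and MCM3 with 913 reads over the 9 libraries, and 3 vials a group limit all comparisons.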
